A study of Mus musculus with 38 samples.

Results

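The genes of 4 proteins secreted by fat cells, leptin (Lep), adiponectin (Adipoq), resistin (Retn) and complement factor D (Cfd), and the imprinted gene neuronatin (Nnat) were followed in mouse tail skin. They are 5 of the 19219 genes in the deposited table of counts, found there by symbol, under the identifiers ENSMUSG00000059201 (Lep), ENSMUSG00000022878 (Adipoq), ENSMUSG00000012705 (Retn), ENSMUSG00000061780 (Cfd) and ENSMUSG00000067786 (Nnat). The 5 were chosen by their measured differences between vitiligo and no_induction libraries and between libraries with and without ABX. Their values in those contrasts are therefore a description without a test.

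Bulk RNA sequencing was done on 38 libraries of tail skin in 6 groups. The vitiligo_ABX group (6 libraries) had vitiligo induction and ABX, given in this series to deplete the microbes of the gut, and the vitiligo group (9) had induction alone. The no_induction_ABX group (6) was wild type skin with ABX, and the no_induction group (9) wild type skin with neither. The hippuric_acid group (5) came from wild type mice injected intraperitoneally with hippuric acid, a glycine conjugate that the series treats as a product of gut microbes, and the vehicle group (3) from wild type mice injected with the vehicle. Strain, age, dose, the method of induction and the agents in ABX are not given in the sources used here.

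Fat cells release leptin in proportion to the lipid they store, and leptin tells the brain, through its receptor Lepr, how full the fat stores are. Adiponectin, an abundant product of mature fat cells, acts through Adipor1 and Adipor2 on glucose and fatty acid use. Resistin is a hormone of white fat cells in the mouse, and factor D is the serine protease that starts the alternative pathway of complement by cleaving factor B. Neuronatin is a small membrane protein of the endoplasmic reticulum, expressed from the paternal allele in brain, pancreatic islets and fat tissue. In skin, white fat cells form a layer under the dermis, which thickens and thins with the hair cycle. RNA from a piece of skin adds up all its cells, so fewer fat cells and less RNA per fat cell cannot be told apart.

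The promoters of Lep and Nnat are shown beside that of Adipoq because these genes are compared in their response. Each line gives the 250 bases before the start of the gene on the plus strand, 5′ to 3′, from RefSeq on GRCm38.p6, which was not stated to be the build of the counts. Capitals mark matches, on either strand, to the letters TTGCNNAA (a motif like those bound by C/EBP factors), GGGCGG (a GC box), CCAAT (bound by NF-Y), TATAA (as in many core promoters), GCGCATGCG (the core bound by NRF1) or CACGTG (an E-box).
Lep, chr6:29059971-29060220: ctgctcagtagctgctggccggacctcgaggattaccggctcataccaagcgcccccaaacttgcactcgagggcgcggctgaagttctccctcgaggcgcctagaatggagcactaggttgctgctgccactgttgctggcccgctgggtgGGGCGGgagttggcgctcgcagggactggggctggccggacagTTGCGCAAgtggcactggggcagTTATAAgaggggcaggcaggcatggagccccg
Nnat, chr2:157559828-157560077: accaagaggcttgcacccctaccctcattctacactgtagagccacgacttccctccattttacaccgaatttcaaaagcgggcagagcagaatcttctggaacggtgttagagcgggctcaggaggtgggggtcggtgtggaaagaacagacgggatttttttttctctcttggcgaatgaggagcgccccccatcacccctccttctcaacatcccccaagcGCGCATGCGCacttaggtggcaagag
Adipoq, chr16:23146286-23146535: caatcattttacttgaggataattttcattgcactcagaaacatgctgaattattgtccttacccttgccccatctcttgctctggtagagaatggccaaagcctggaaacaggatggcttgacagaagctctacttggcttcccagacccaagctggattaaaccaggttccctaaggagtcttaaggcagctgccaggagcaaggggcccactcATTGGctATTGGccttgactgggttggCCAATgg
The Lep window held a GC box, 1 match to TTGCNNAA and TATAA near the start, matched on both strands over overlapping bases. The Nnat window held only GCGCATGCG, matched on both strands over the same bases, and the Adipoq window held CCAAT 3 times. None of the 6 motifs was in the windows of Retn (chromosome 8) or Cfd (chromosome 10). Of 32851 windows of this length in the table, 9.56% held TTGCNNAA, 32.7% GGGCGG, 33.9% CCAAT, 22.8% TATAA, 1.45% GCGCATGCG and 6.02% CACGTG. CpG dinucleotides numbered 16 in the Lep window and 12 in the Nnat window, against 0 for Adipoq, 2 for Retn and 2 for Cfd, with a median of 6 over all windows. Fewer CpGs than in Lep were counted in 74.6% of windows, and fewer than in Nnat in 66.5%.

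Library totals ran from 15341831 to 27920844 counts. Libraries of different groups may differ in cohort, which the labels do not give, so cohort cannot be told apart from induction, ABX or hippuric acid. Nor do the labels say whether libraries are separate mice, so p-values measure only the spread between these libraries, which may be technical. Transcripts of gut (Fabp2 at 1 CPM or more) were found in 5 libraries, which were vitiligo 000 and 260, no_induction 011 and 012, and vehicle 001. The last 3 also held 51.2 to 65.6 CPM of the Y-linked gene Ddx3y, against 0.113 CPM or less in all other libraries. Sex may thus differ between libraries within no_induction and vehicle, and its part in the levels was not tested. By their gut transcripts these 5 libraries go against the label of tail skin in part. Most counts and calls that changed without them are given both ways. All 29 adipocyte markers of the list used here (such as Plin1, Cidec and Fabp4) were detected in every group. Ucp1, the defining gene of brown fat, stayed at or under 0.517 CPM in all libraries.

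Lep was highest in vitiligo skin and nearly absent with ABX. Its lowest, median and highest levels in CPM, which scales counts by library size, were 0.186, 0.394 and 3.08 in vitiligo_ABX, against 29.9, 50.9 and 176 in vitiligo. They were 0, 0.209 and 0.519 in no_induction_ABX, against 0.605, 2.77 and 11.2 in no_induction. The 5 hippuric_acid libraries had 0.0485, 0.0530, 1.05, 1.18 and 1.51 CPM, against 16.9, 17.4 and 36.8 CPM in the 3 vehicle libraries. No library with ABX or hippuric acid reached the lowest value of the group it is set against. The lowest Lep levels rest on very few reads, with 1 count each in hippuric_acid 3 and 5 and in no_induction_ABX 003. In no_induction_ABX 004 Lep had 0 counts, which allows a level of up to 0.156 CPM at 3 counts, counting error only.

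Nnat did not follow the same order. It was at 0.340, 0.538 and 1.57 CPM (lowest, median, highest) in vitiligo_ABX, against 2.54, 8.40 and 54.0 CPM in vitiligo, with no overlap. In no_induction_ABX it was at 0.344, 0.745 and 0.934 CPM, against 0.351, 0.830 and 1.51 CPM in no_induction, and these ranges overlapped almost wholly. Hippuric_acid libraries had 0.291, 0.320, 0.848, 1.23 and 2.69 CPM, against 2.74, 2.77 and 3.38 CPM in vehicle. Vitiligo 260 alone, one of the libraries with gut transcripts, reached 54.0 CPM, and the next highest vitiligo library had 19.7 CPM. Behind most values outside vitiligo stood 6 to 57 counts, so small differences of Nnat among those groups were not detectable at this depth.

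Adipoq, the measure of fat against which the others are set, had 5.57, 12.3 and 48.4 CPM (lowest, median, highest) in vitiligo_ABX, against 156, 321 and 778 CPM in vitiligo. It had 3.52, 5.47 and 15.9 CPM in no_induction_ABX, against 20.4, 75.8 and 104 CPM in no_induction. The hippuric_acid libraries had 6.79, 8.05, 29.4, 30.8 and 46.6 CPM, against 129.9, 140.3 and 159.7 CPM in vehicle. The groups of each pair did not overlap. Libraries 3 and 5 of hippuric_acid were the lowest of their group for Adipoq, Lep, Retn and Cfd alike.

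Retn had 2.09, 3.52 and 27.8 CPM in vitiligo_ABX, against 69.8, 125 and 266.5 CPM in vitiligo. In no_induction_ABX it had 0.939, 1.38 and 5.08 CPM, against 7.98, 32.1 and 62.5 CPM in no_induction. Hippuric_acid libraries had 1.43, 2.28, 10.8, 10.9 and 15.5 CPM, against 62.8, 66.8 and 80.2 CPM in vehicle. As with Adipoq, none of these pairs of groups overlapped.

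Cfd was the most abundant of the 5. It had 47.4, 74.5 and 373 CPM in vitiligo_ABX, against 697, 1096 and 1744 CPM in vitiligo, and 18.96, 34.8 and 109.9 CPM in no_induction_ABX, against 113, 371 and 629 CPM in no_induction. Hippuric_acid libraries had 49.4, 58.8, 213, 279 and 316 CPM, against 499.9, 590.0 and 842 CPM in vehicle. The groups of each pair were again separate. Retn and Cfd were both highest within vitiligo_ABX in library 003, which was also highest there for Lep, Adipoq and Nnat.

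**Figure D1:**
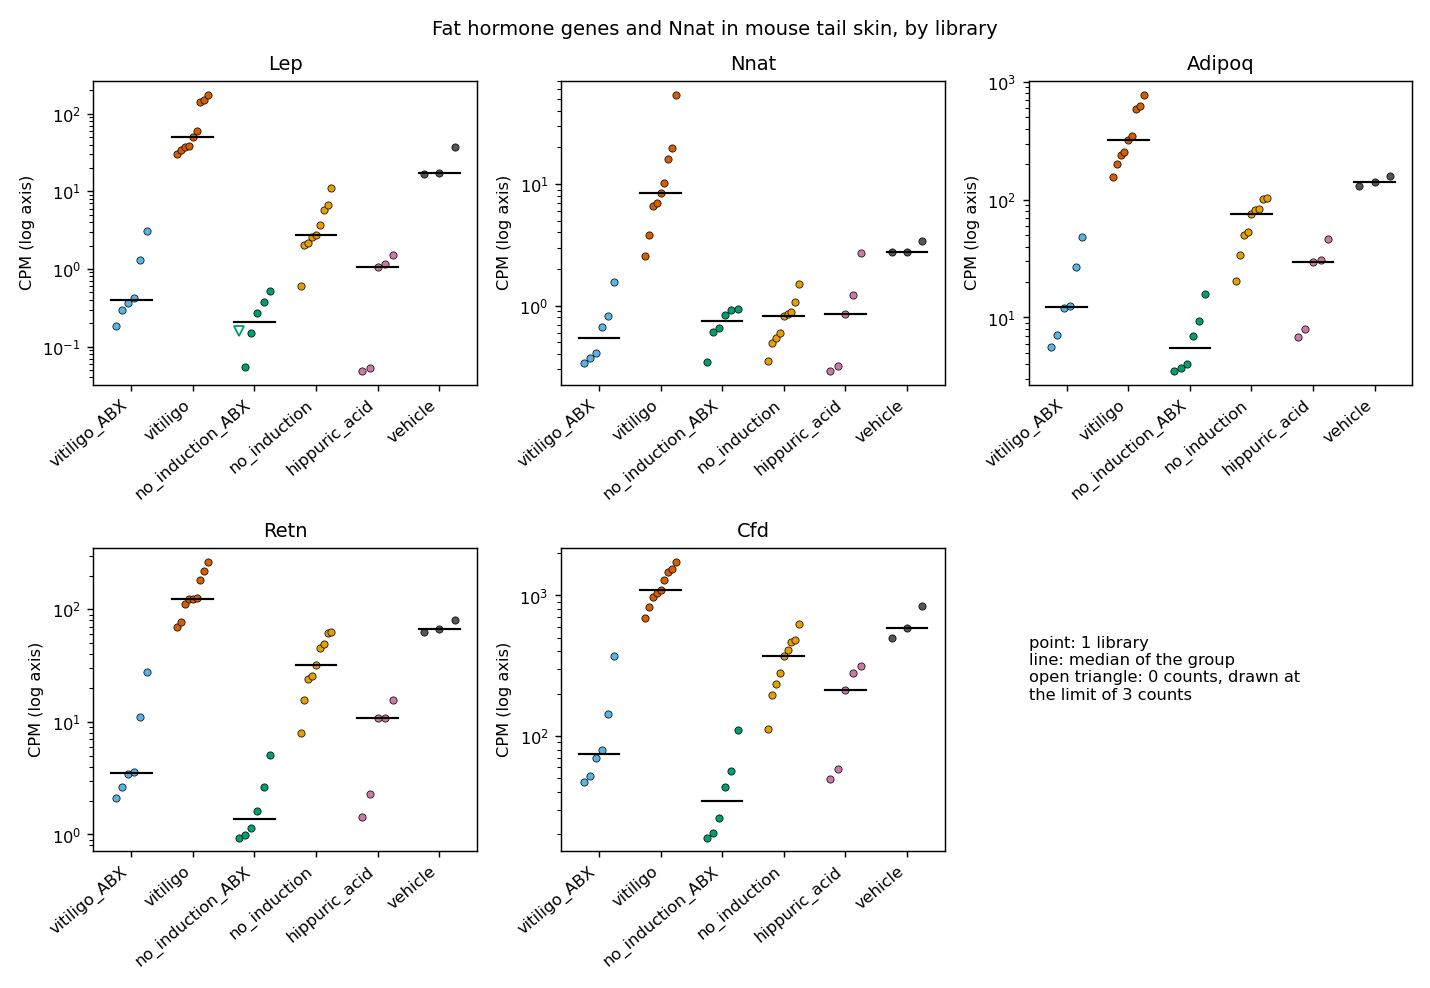
Level of each gene in every library, in CPM on a log axis, with 1 point per library and a line at the group median. Lep, Adipoq, Retn and Cfd form the same steps from vitiligo down to no_induction_ABX, while Nnat lies between 0.291 and 3.38 CPM in every group but vitiligo.

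By median CPM, Lep, Adipoq, Retn and Cfd ranked the groups alike, with vitiligo first, then vehicle, no_induction, hippuric_acid, vitiligo_ABX and no_induction_ABX. Neighbours in this order overlapped, except that vehicle and no_induction were separate for Lep, Adipoq and Retn. For Nnat vitiligo and vehicle overlapped at the top, vehicle was separate from the next group, and the other 4 groups, with medians of 0.538 to 0.848 CPM, overlapped one another. Per kilobase of exon the median of vitiligo libraries was 1188 CPM for Cfd, 232 for Adipoq, 78.9 for Retn, 15.2 for Lep and 4.59 for Nnat. In no_induction libraries the same order held, at 402, 54.9, 20.4, 0.827 and 0.454 CPM per kilobase. In no_induction_ABX libraries Nnat, at 0.407 CPM per kilobase, stood above Lep at 0.0622 CPM per kilobase.

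Injection of hippuric acid, done in this series to mimic a raised level of this compound, went with a fall against vehicle in 3 of the 5 genes. In edgeR's fit across 14097 genes, 13.8% of genes were called at a Benjamini-Hochberg adjusted p under 0.05, and 3 of the 5 members were called, all lower. Lep averaged 0.768 ± 0.676 CPM with hippuric acid (SD, n = 5) and 23.7 ± 11.4 CPM with vehicle (n = 3). Its log2 fold change of -4.92 ± 0.65 (SE) had an edgeR adjusted p of 0.00235, and all 5 libraries lay under every vehicle library. Retn averaged 8.17 ± 6.09 CPM with hippuric acid and 69.9 ± 9.09 CPM with vehicle, a log2 fold change of -3.09 ± 0.60 (edgeR adjusted p = 0.0128). Adipoq averaged 24.3 ± 16.9 CPM with hippuric acid and 143 ± 15.1 CPM with vehicle, a log2 fold change of -2.56 ± 0.55 (edgeR adjusted p = 0.0185). Cfd averaged 183 ± 124 CPM with hippuric acid and 644 ± 178 CPM with vehicle, and its log2 fold change of -1.81 ± 0.58 did not pass (edgeR adjusted p = 0.0722). Nnat averaged 1.08 ± 0.984 CPM with hippuric acid and 2.97 ± 0.359 CPM with vehicle, and its log2 fold change of -1.46 ± 0.58 did not pass either (edgeR adjusted p = 0.119). In both Cfd and Nnat the 5 hippuric_acid libraries lay under all 3 vehicle libraries. The share of all genes separated in this way was not counted, here or in the other comparisons. These falls are relative to vehicle, which itself lay above no_induction without overlap for Lep, Adipoq and Retn. Median Lep was 17.4 CPM in vehicle and 2.77 CPM in no_induction, and median Adipoq 140 and 75.8 CPM. Hippuric_acid and no_induction overlapped for Lep, Adipoq, Retn and Cfd. Why vehicle stood higher than no_induction was not tested.

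Single libraries decided some of these calls. Without vehicle 001, which held gut and Y-linked transcripts, the log2 fold change of Adipoq stayed at -2.55 but missed the threshold (edgeR adjusted p = 0.0605), while Lep (-5.09, adjusted p = 0.00488) and Retn (-2.96, adjusted p = 0.0478) kept their calls. Without hippuric_acid 2 the log2 fold change of Nnat was -2.15 and passed (edgeR adjusted p = 0.0176). Cfd passed by DESeq2 (adjusted p = 0.0452).

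With ABX in both groups, induction of vitiligo went with no called difference in the 5 genes. In edgeR's fit of vitiligo_ABX against no_induction_ABX 4.97% of 13876 genes were called, and 0 of the 4 members that passed its filter on low counts. At an unadjusted p under 0.05, 2889 genes passed, among them 3 members (Retn, Adipoq and Cfd), and by DESeq2 0 of the 5 passed the adjusted threshold. Retn averaged 8.43 ± 10.02 CPM in vitiligo_ABX and 2.07 ± 1.61 CPM in no_induction_ABX (SD, n = 6 each), a log2 fold change of 2.04 ± 0.71 with an edgeR adjusted p of 0.125. Adipoq averaged 18.7 ± 16.3 CPM in vitiligo_ABX and 7.22 ± 4.81 CPM in no_induction_ABX (log2 fold change 1.39 ± 0.57, edgeR adjusted p = 0.185). Cfd averaged 128 ± 125 CPM in vitiligo_ABX and 45.8 ± 34.6 CPM in no_induction_ABX (log2 fold change 1.49 ± 0.61, edgeR adjusted p = 0.186). For Nnat the means were 0.698 ± 0.467 CPM in vitiligo_ABX and 0.716 ± 0.226 CPM in no_induction_ABX (log2 fold change -0.02 ± 0.39, edgeR adjusted p = 0.986). Lep did not pass the filter, and without it had a log2 fold change of 2.01 ± 0.77 (edgeR adjusted p = 0.174). The higher means of Retn, Adipoq, Cfd and Lep lay in libraries 002 and 003 of vitiligo_ABX, which alone exceeded every no_induction_ABX library. Without vitiligo_ABX 003 the log2 fold changes were 1.14 for Retn, 0.83 for Adipoq and 0.78 for Cfd. These libraries also enter the contrasts with ABX in which the 5 genes were noticed.

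Induction of vitiligo without ABX is the contrast in which Lep and Nnat stood out, and it is given here as a description. All 9 vitiligo libraries exceeded every no_induction library for each of the 5 genes, and the share of all genes so separated was not counted. The fit called 7.74% of genes. The log2 fold change was 4.29 ± 0.49 (SE) for Lep and 4.18 ± 0.53 for Nnat, against 2.57 ± 0.34 for Adipoq, 2.03 ± 0.34 for Retn and 1.77 ± 0.26 for Cfd. As ratios of mean CPM, vitiligo was 19.3-fold higher for Lep and 18.0-fold higher for Nnat, and 5.82-fold for Adipoq. Without the 4 libraries with gut transcripts the log2 fold changes were 3.63 for Lep, 3.47 for Nnat and 2.35 for Adipoq. Leaving out vitiligo 260 alone brought Nnat to 3.58.

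ABX in induced mice is described in the same way. Set against vitiligo, vitiligo_ABX had log2 fold changes of -6.39 ± 0.68 for Lep, -4.33 ± 0.69 for Nnat, -4.37 ± 0.54 for Adipoq, -4.09 ± 0.56 for Retn and -3.21 ± 0.44 for Cfd, in a fit that called 13.1% of genes. All 6 vitiligo_ABX libraries lay under every vitiligo library for each gene, and the share of all genes so separated was not counted. Without vitiligo_ABX 003 the values were -7.30 for Lep, -4.99 for Retn and -3.91 for Cfd, and without the vitiligo libraries with gut transcripts Nnat was at -3.57. In wild type mice, no_induction_ABX against no_induction, the log2 fold changes were -4.13 ± 0.66 for Lep, -4.11 ± 0.54 for Retn, -3.21 ± 0.44 for Adipoq and -2.94 ± 0.47 for Cfd. Nnat, at -0.14 ± 0.31, was the exception. That fit called 31.1% of genes. These contrasts share their ABX-free libraries with the contrast of induction, so their values are not independent of it.

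**Figure D2:**
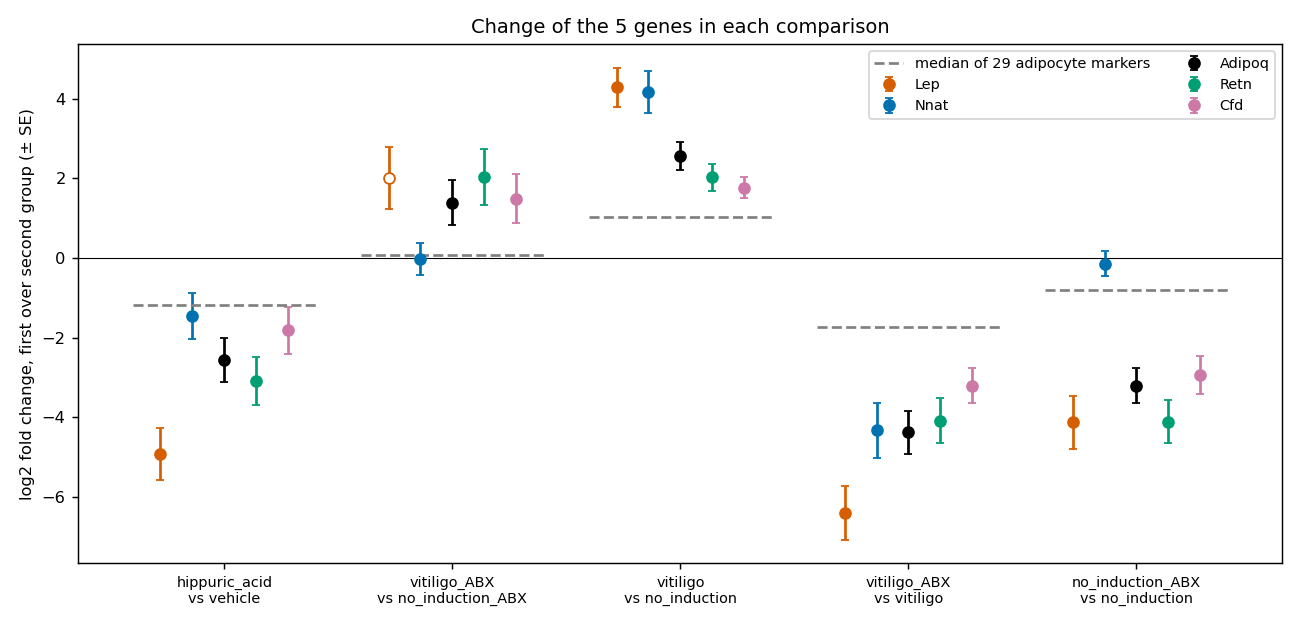
Log2 fold change of each gene, first group over second, with its SE, in 5 comparisons. The dashed line is the median of 29 adipocyte markers, and the open point is Lep fitted without the filter on low counts. Lep lies farthest from 0 in vitiligo against no_induction, vitiligo_ABX against vitiligo and hippuric_acid against vehicle, and Nnat lies near 0 in both comparisons with no_induction_ABX.

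How far Lep and Nnat moved beyond Adipoq was measured as a ratio within each library. For every 100 counts of Adipoq, hippuric_acid libraries had 0.658 to 3.99 counts of Lep, against 12.02 to 23.1 in vehicle libraries. On the log2 scale, with 0.5 added to each count, this ratio was -5.52 ± 1.00 with hippuric acid (SD, n = 5) and -2.69 ± 0.50 with vehicle (n = 3), a difference of -2.83. Lep was thus 7.11-fold lower relative to Adipoq, and the groups did not overlap. The size of this fold depends in part on hippuric_acid 3 and 5, which had 1 count of Lep each. Their log2 ratios were -6.67 and -6.55, against -4.93 to -4.62 in the other hippuric_acid libraries. The exact permutation test, two-sided, gave p = 0.0357, the smallest that 5 against 3 libraries allow, and p = 0.0952 after Benjamini-Hochberg adjustment over 8 such ratios. Retn was lower relative to Adipoq by 0.68 on the log2 scale and Cfd higher by 0.76, each without overlap and each with the same exact p = 0.0357 and adjusted p = 0.0952. Nnat per 100 counts of Adipoq ran from 1.04 to 10.5 with hippuric acid and from 1.96 to 2.13 with vehicle, a log2 difference of 1.02 that did not pass (exact permutation p = 0.143, adjusted p = 0.190). With a smallest p of 0.0357, the 4 ratios of this comparison could not pass the adjustment over 8 on their own, so the adjusted values say nothing about stability. With 1 CPM added in place of 0.5 counts the difference for Lep was -0.97. Set against the level of the adipocyte marker list in place of Adipoq it was -2.69 for Lep, and that of Cfd was -1.03, the opposite sign.

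The log2 ratio of Lep to Adipoq was -4.54 ± 0.76 in vitiligo_ABX and -5.19 ± 1.35 in no_induction_ABX (SD, n = 6 each), a difference of 0.64 (exact permutation p = 0.336, adjusted p = 0.336) whose sign turned, to -0.55, with 1 CPM added in place of 0.5 counts. That of Nnat was -4.49 ± 1.25 in vitiligo_ABX and -3.13 ± 1.00 in no_induction_ABX, a difference of -1.37 (exact permutation p = 0.0671, adjusted p = 0.134). Those of Retn and Cfd differed by 0.43 (adjusted p = 0.187) and 0.15 (adjusted p = 0.284), by the same exact permutation test. The ranges of the 2 groups overlapped for all 4 ratios.

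In the contrasts by which the genes were chosen, the ratios are a description. Lep per 100 counts of Adipoq was 14.9 to 25.7 in vitiligo libraries and 1.98 to 13.8 in no_induction libraries, with no overlap, and the mean log2 ratio was higher by 1.82. With ABX the range in vitiligo_ABX was 1.498 to 6.37, under every vitiligo library, and the mean log2 ratio was lower by 2.12 than in vitiligo. In no_induction_ABX libraries it was 0 to 10.7, within reach of no_induction. For Nnat the ranges were 1.63 to 6.94 in vitiligo and 0.345 to 2.67 in no_induction, which overlapped, with a mean log2 ratio higher by 1.16. In no_induction_ABX Nnat stood at 3.70 to 22.5 per 100 counts of Adipoq, above every no_induction library. These libraries had 71 to 306 counts of Adipoq and 7 to 18 counts of Nnat. Cfd showed the reverse of Lep, with a median of 304 counts per 100 of Adipoq in vitiligo and 554 in no_induction.

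**Figure D3:**
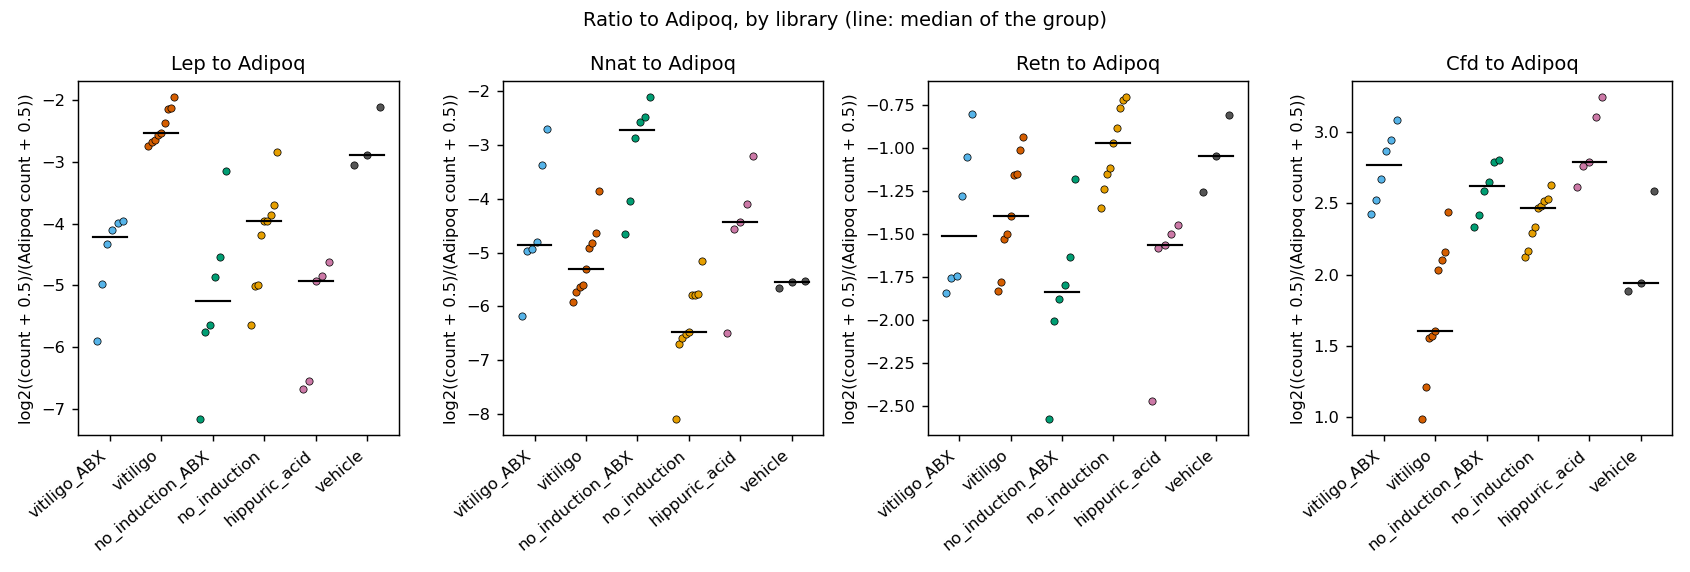
Log2 ratio of Lep, Nnat, Retn and Cfd to Adipoq in every library, with 0.5 added to each count and a line at the group median. The ratio of Lep lies highest in vitiligo and vehicle, and that of Nnat lies highest in no_induction_ABX.

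Libraries with like amounts of Adipoq can be set side by side. Vitiligo 062 had 156 CPM of Adipoq, with 29.9 CPM of Lep and 2.54 CPM of Nnat, and vehicle 002 had 159.7 CPM of Adipoq, with 36.8 CPM of Lep and 3.38 CPM of Nnat. Vehicle 001 and 003, with 140.3 and 129.9 CPM of Adipoq, had 16.9 and 17.4 CPM of Lep and 2.74 and 2.77 CPM of Nnat. Vitiligo 062 thus lay within the range of the 3 vehicle libraries for Lep and under it for Nnat. Vitiligo_ABX 003 and hippuric_acid 2, with 48.4 and 46.6 CPM of Adipoq, had 3.08 and 1.51 CPM of Lep. No_induction 021, with 50.6 CPM of Adipoq, had 2.77 CPM of Lep. No_induction 011 and 012, both with gut and Y-linked transcripts, had 83.2 and 101.8 CPM of Adipoq but 2.58 and 2.02 CPM of Lep. Their Lep lay under the 11.2, 5.81 and 6.68 CPM of no_induction 001, 002 and 005, whose Adipoq was 81.1, 75.8 and 104 CPM.

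**Figure D4:**
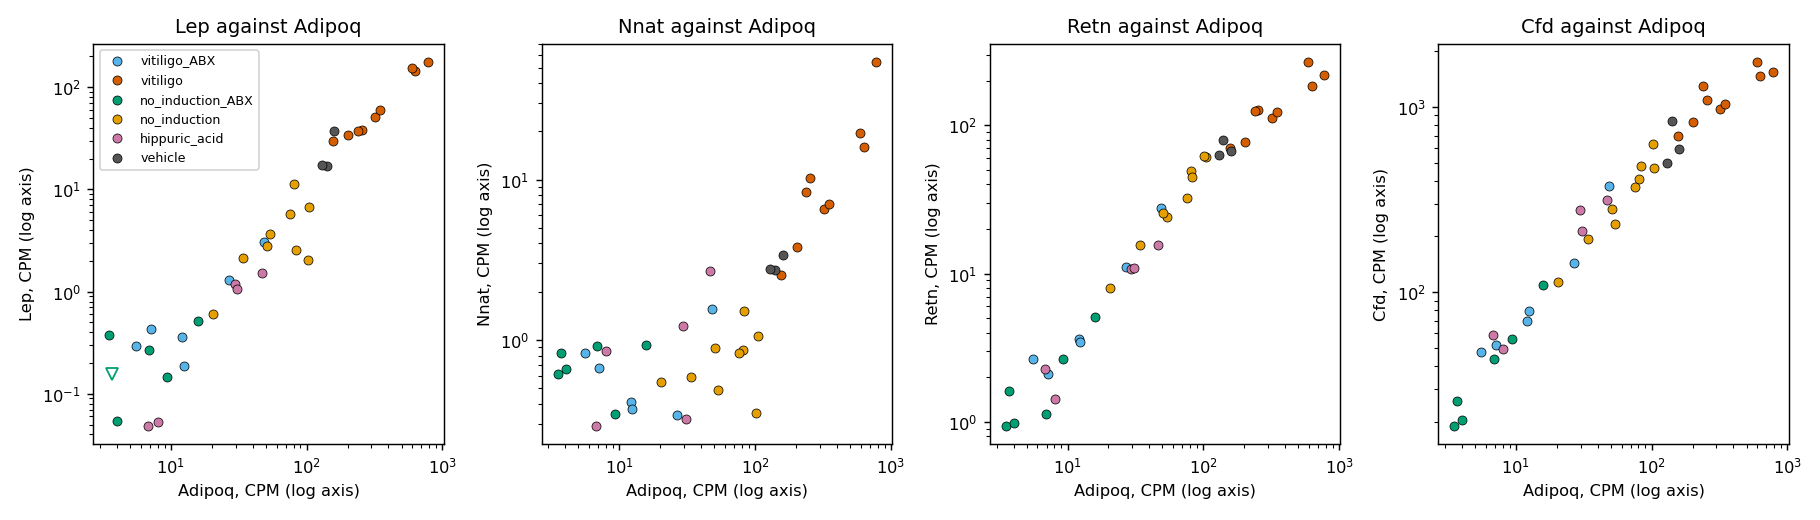
Lep, Nnat, Retn and Cfd against Adipoq in the 38 libraries, in CPM on log axes, coloured by group. The open triangle is the library with 0 counts of Lep, drawn at 0.156 CPM. Retn and Cfd follow Adipoq over its whole range, and Nnat stays at or under 2.69 CPM in all libraries with 104 CPM of Adipoq or less.

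Within single groups the 4 genes were also compared with Adipoq, on log2(CPM + 1), in the 4 groups of 6 or more libraries, 16 relations in all. Such relations share the depth of each library and the amount of fat in it. In vitiligo Lep followed Adipoq closely (Pearson's r = 0.981, exact permutation p = 1.65e-05, adjusted p = 0.000265; Spearman's rho = 0.983, exact p = 4.96e-05, adjusted p = 0.000794, n = 9), and r was 0.988 without the 2 libraries farthest from the median of Adipoq. The slope was 1.24 ± 0.09 (SE), and 1.22 ± 0.16 without vitiligo 000 and 260. Nnat followed as well (r = 0.911, exact permutation p = 0.000557, adjusted p = 0.00223; rho = 0.85, exact p = 0.00607, adjusted p = 0.0194), with r = 0.839 without those 2 libraries and a slope of 1.35 ± 0.23. Retn and Cfd followed Adipoq with slopes of 0.74 ± 0.12 and 0.47 ± 0.10. Their r were 0.924 (exact permutation p = 0.00119, adjusted p = 0.00379) and 0.867 (exact permutation p = 0.00338, adjusted p = 0.00773), with rho of 0.817 (exact p = 0.0108, adjusted p = 0.0287) and 0.80 (exact p = 0.0138, adjusted p = 0.0316). Without the farthest 2 libraries their r were 0.878 and 0.782. Without vitiligo 000 and 260, r was 0.960 for Lep, 0.871 for Nnat, 0.929 for Retn and 0.842 for Cfd (n = 7), and the slope of Nnat was 1.16 ± 0.29.

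In no_induction Nnat and Lep were not called. For Lep r was 0.669 (exact permutation p = 0.0441, adjusted p = 0.0641; rho = 0.433, exact p = 0.2499, adjusted p = 0.333, n = 9), and r was 0.179 without the farthest 2 libraries. Without no_induction 011 and 012, which held gut and Y-linked transcripts, r for Lep was 0.934 (exact permutation p = 0.00357, adjusted p = 0.00714 over 8 relations, n = 7). For Nnat r was 0.358 (exact permutation p = 0.337, adjusted p = 0.385), rho 0.317 (exact p = 0.410, adjusted p = 0.505) and r 0.105 without the farthest 2, and it was 0.756 without 011 and 012 (exact permutation p = 0.0548, adjusted p = 0.0548, n = 7). Retn (r = 0.988, exact permutation p = 4.41e-05, adjusted p = 0.000353; rho = 0.95, exact p = 0.000353, adjusted p = 0.00282) and Cfd (r = 0.976, exact permutation p = 0.000143, adjusted p = 0.000764; rho = 0.933, exact p = 0.00075, adjusted p = 0.004) followed Adipoq in this group, also without the farthest 2 libraries (0.958 and 0.924).

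With ABX only Cfd and, in induced mice, Retn were called. In vitiligo_ABX r was 0.979 for Cfd (exact permutation p = 0.00278, adjusted p = 0.00741; rho = 1, exact p = 0.00278, adjusted p = 0.0111, n = 6) and 0.965 for Retn (exact permutation p = 0.0111, adjusted p = 0.0198; rho = 0.886, exact p = 0.0333, adjusted p = 0.0593). For Lep it was 0.899 (exact permutation p = 0.05, adjusted p = 0.0667; rho = 0.6, exact p = 0.242, adjusted p = 0.333), a relation that rested on 2 libraries, without which r was -0.38. Nnat gave 0.371 (exact permutation p = 0.494, adjusted p = 0.527; rho = -0.14, exact p = 0.803, adjusted p = 0.803), and -0.998 over the remaining 4 libraries without the farthest 2. In no_induction_ABX r was 0.987 for Cfd (exact permutation p = 0.00833, adjusted p = 0.0167; rho = 0.943, exact p = 0.0167, adjusted p = 0.0333, n = 6), 0.892 for Retn (exact permutation p = 0.0417, adjusted p = 0.0641; rho = 0.829, exact p = 0.0583, adjusted p = 0.0933), 0.591 for Lep (exact permutation p = 0.239, adjusted p = 0.294; rho = 0.371, exact p = 0.497, adjusted p = 0.530) and 0.108 for Nnat (exact permutation p = 0.9, adjusted p = 0.9; rho = 0.371, exact p = 0.497, adjusted p = 0.530). Without the farthest 2 libraries r was 0.978 for Cfd and 0.799 for Retn in vitiligo_ABX. The same values in no_induction_ABX were 0.926 for Cfd, -0.06 for Retn, 0.267 for Lep and 0.730 for Nnat.

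Genes with the most similar pattern over the 38 libraries were ranked by Pearson's r of log2(CPM + 1) among 13149 genes averaging at least 1 CPM. For Lep they were Nnmt (r = 0.976), an enzyme that methylates nicotinamide, Apol6 (0.973), the lipoprotein lipase gene Lpl (0.963), the peroxisomal fatty acid transporter Abcd2 (0.962) and Klhdc7a (0.962). For Nnat they were Itgad (0.928), an integrin chain of macrophages, Eepd1 (0.927), Aifm2 (0.919), an oxidoreductase of lipid membranes, the lipid antigen presenter Cd1d1 (0.917) and the succinate receptor Sucnr1 (0.915). By ranks these genes were less close to Nnat, with Spearman's rho of 0.696, 0.766, 0.814, 0.663 and 0.746 in this order. Between Nnat and Lep rho was 0.782, and between Nnat and Adipoq 0.755. Adipoq was most like Car3 (0.992), the carbonic anhydrase of fat and muscle, and Plin1 (0.992), which coats lipid droplets, then Retn (0.989), Cidec (0.988) and Trarg1 (0.986). Retn and Cfd shared Car3, Plin1 and Adipoq among their nearest 5. Between members r was 0.946 for Lep and Adipoq, 0.802 for Nnat and Adipoq, and 0.890 for Lep and Nnat. These values describe 38 libraries that fall into groups, and share fat content and depth.

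The receptors of these hormones were measured beside them. The lists of genes used from here on were drawn up with earlier results of these data known. Their calls and p-values with induction or ABX are therefore not independent support. With hippuric acid Lepr averaged 61.5 ± 10.3 CPM, against 30.4 ± 6.64 CPM with vehicle (SD, n = 5 and 3), a log2 fold change of 1.01 ± 0.17 (edgeR adjusted p = 0.00454). Of the 13 genes of the leptin receptor and its signalling, beside 13.8% of all genes called, 3 rose (Lepr, the kinase Jak2 and its inhibitor Socs3) and 1 fell (Leprotl1), with a median log2 fold change of 0.02, the same as the 0.02 of all genes tested. Of 13 genes of adiponectin receptors, signalling and secretion, 0 rose and 4 fell with hippuric acid (median -0.18). These were Adipor2 (-0.59 ± 0.10, edgeR adjusted p = 0.00451), the adaptor Appl2 (-0.59 ± 0.12, adjusted p = 0.00964), Gstk1, which aids the assembly of adiponectin (-0.66 ± 0.14, adjusted p = 0.0142), and Adipor1 (-0.32 ± 0.09, adjusted p = 0.0399). Without vehicle 001, Adipor1 was not among the calls of that list, while Cdh13 was called higher and Prkaa2 lower. Cap1 and Tlr4, which bind resistin, had log2 fold changes of 0.18 and 0.35 and did not pass (edgeR adjusted p = 0.176 and 0.240), nor did Cdh13, which binds adiponectin (0.12, adjusted p = 0.744).

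ABX in wild type mice also went with a higher Lepr and lower Adipor1 and Adipor2. Lepr averaged 47.8 ± 6.50 CPM in no_induction_ABX (n = 6) and 30.1 ± 6.92 CPM in no_induction (n = 9), a log2 fold change of 0.68 ± 0.13 (edgeR adjusted p = 0.000878). Adipor2 fell by 0.50 ± 0.06 (edgeR adjusted p = 4.66e-05) and Adipor1 by 0.25 ± 0.08 (adjusted p = 0.0229), while Cdh13 (0.58 ± 0.13, adjusted p = 0.00256) and Tlr4 (0.61 ± 0.17, adjusted p = 0.0142) rose. The call of Adipor1 was lost without no_induction 011 and 012, where Appl1 was called higher. Beside 31.1% of all genes called in that fit, the lists gave 3 higher and 2 lower of 13 leptin genes, 1 higher and 5 lower of 13 adiponectin genes, and 2 higher of 4 resistin binding proteins. With induction Lepr averaged 41.8 ± 9.60 CPM in vitiligo and 30.1 ± 6.92 CPM in no_induction (0.50 ± 0.15, edgeR adjusted p = 0.0423), a call that was lost without the libraries with gut transcripts. Of 13 adiponectin genes 0 were called with induction, and 0 of 4 resistin binding proteins, beside 7.74% of all genes. In vitiligo_ABX against no_induction_ABX Lepr had a log2 fold change of 0.06 ± 0.26 and did not pass (edgeR adjusted p = 0.921).

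Other secreted products of fat were mixed. Of 21 measured with hippuric acid, 2 rose and 3 fell, beside 13.8% of all genes called. The rises were Angptl2 (0.81 ± 0.18, edgeR adjusted p = 0.0157) and C1qtnf3 (1.995 ± 0.32, adjusted p = 0.00365). The falls were the retinol carrier Rbp4 (-2.48 ± 0.42, adjusted p = 0.00598), haptoglobin Hp (-2.98 ± 0.54, adjusted p = 0.00981) and vaspin, Serpina12 (-1.28 ± 0.14, adjusted p = 0.000663), which keratinocytes also make. Without vehicle 001, when 19.6% of all genes were called, 5 rose and 4 fell. Of 20 measured in vitiligo against no_induction, 6 rose and 0 fell, beside 7.74% of all genes called. Among them were Hp, Rbp4, Retnla and the chemerin gene Rarres2. These 4 rose without the libraries with gut transcripts, when 3.7% of all genes were called. Of the alternative and terminal complement genes apart from Cfd, 2 of 15 rose with hippuric acid (Masp1 and Cd55) and 1 fell (C7), beside 13.8% of all genes called. Without vehicle 001 6 rose and 0 fell, beside 19.6%. Earlier results of vitiligo against no_induction were known when the list was drawn up. There C3, the substrate of the pathway that factor D starts, rose by 1.67 ± 0.23 (edgeR adjusted p = 0.000111) and C7 fell, among 14 measured. The call of C7 was lost without the libraries with gut transcripts, and that of C3 was kept.

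Nnat lies inside the span of Blcap on the opposite strand, and by GENCODE M21 the exons of the 2 genes share 0 bases. Blcap averaged 33.2 ± 3.72 CPM in vitiligo and 33.6 ± 2.86 CPM in no_induction (n = 9 each), with a log2 fold change of 0.00 ± 0.07 (edgeR adjusted p = 0.978). With hippuric acid it was 30.0 ± 2.19 CPM, against 33.02 ± 1.66 CPM with vehicle (-0.14 ± 0.10, edgeR adjusted p = 0.377), and it was called in none of the 5 comparisons. Of 15 genes measured in the list of this locus and other imprinted genes, 5 rose in vitiligo against no_induction (Peg3, Plagl1, Mest, Grb10 and Sgce) and 0 fell, with a median of 0.31, beside 7.74% of all genes called. The largest were Mest, a marker of fat expansion in mice (1.89 ± 0.29, edgeR adjusted p = 0.000332), and Peg3 (1.65 ± 0.23, adjusted p = 0.000136). Without the libraries with gut transcripts 3 rose, when 3.7% of all genes were called. Of the same 15, 0 were called with hippuric acid (1 without vehicle 001, Grb10, which rose), where Mest stood at 18.8 ± 16.2 CPM, against 58.6 ± 14.1 CPM with vehicle (-1.64 ± 0.66, edgeR adjusted p = 0.136). Of 3 measured genes of the calcium pump that neuronatin is reported to act on, and its regulators, 0 were called in the main fits of induction and of hippuric acid. Without vehicle 001 Atp2a3 was called higher with hippuric acid, and without no_induction 011 and 012 Atp2a2 was called lower in vitiligo than in no_induction. Atp2a3 was higher in vitiligo_ABX than in vitiligo, a call lost without the libraries with gut transcripts, and Pln was higher in no_induction_ABX than in no_induction.

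The wider set of fat cell genes was counted next. Of 29 adipocyte markers apart from the 5 genes, 14 fell and 0 rose with hippuric acid, beside 13.8% of all genes called. Their median log2 fold change was -1.18, against 0.02 over all genes tested. Examples of the falls were Plin1 (-2.63 ± 0.51, edgeR adjusted p = 0.0127) and Lipe, the hormone-sensitive lipase (-1.66 ± 0.28, adjusted p = 0.00568). Without vehicle 001, when 19.6% of all genes were called, the list had 13 falls and a median of -0.84. In vitiligo against no_induction 19 rose and 0 fell, beside 7.74% of all genes called, with a median of 1.04 against 0.01. Without the libraries with gut transcripts 19 rose, beside 3.7% of all genes called. In vitiligo_ABX against no_induction_ABX 1 fell (Cidea) and 0 rose, with a median of 0.08, beside 4.97% of all genes called. The summed level of these markers was 8426 to 12564 CPM with hippuric acid and 13017 to 18581 CPM with vehicle, while vitiligo libraries summed to 19341 to 24574 CPM, against 11383 to 16114 CPM for no_induction. The sums of no_induction_ABX, 11293 to 13807 CPM, overlapped those of no_induction. Yet 18 of the 29 fell and 2 rose there, beside 31.1% of all genes called. With hippuric acid Plin1 reached at most 38.2 CPM and Cidec 21.9 CPM, so other markers of the list carried the sum. Among transcription factors of fat cells Pparg (-0.73 ± 0.19, edgeR adjusted p = 0.0279), Cebpa (-0.59 ± 0.12, adjusted p = 0.0108) and Klf5 fell with hippuric acid, and Ebf1 and Ebf2 rose.

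Markers of other cells were counted in the same comparison of hippuric acid with vehicle, in which 13.8% of all genes were called. Of the preadipocyte and fibroblast markers 3 of 10 rose (Pi16, Pdgfrb and Pdgfra), with summed levels of 9033 to 10839 CPM with hippuric acid and 8196 to 15621 CPM with vehicle. Of the macrophage markers 1 of 8 rose (Mrc1) and 1 fell (Itgad), summing to 1113 to 1257 CPM with hippuric acid and 711 to 1254 CPM with vehicle. Of the neuron and Schwann cell markers 2 of 10 rose (Sox10 and Tubb3), summing to 442.5 to 952 CPM with hippuric acid and 442.6 to 612 CPM with vehicle. Of the sebaceous gland markers 1 of 9 rose (Fads2), of the endothelial and pericyte markers 1 of 7 (Kdr), of the muscle markers 1 of 7 (Acta1) and of the brown fat markers 1 of 3 (Dio2). Several of these counts changed without vehicle 001, when 19.6% of all genes were called. Of the macrophage markers 5 of 8 then rose (Cd68, Csf1r, Mrc1, Itgam and Lyz2) and Itgad fell, with a median log2 fold change of 0.64 in place of 0.30. Of the endothelial and pericyte markers 5 of 7 rose (Tek, Pecam1, Cdh5, Emcn and Kdr), with a median of 0.89 in place of 0.49. Of the sebaceous gland markers 0 rose and 2 fell (Mgst1 and Soat1), and 0 of 3 brown fat markers were called. Of the neuron and Schwann cell markers 1 of 10 rose (Sox10), and of the preadipocyte and fibroblast markers 4 of 10, with Cd34 added. The part of these cells in the levels of the 5 genes was not tested.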

How the data were processed

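Polyadenylated RNA of tail skin was sequenced on an Illumina Novaseq6000, per the labels' protocols. The deposited table holds estimated counts per gene and library, not normalized by the authors, in which 3107 of 19219 genes had values that were not whole. These were rounded, which changed no library total by more than 22.1. Of 19220 rows 1 was incomplete and left out. StringTie 1.3.1, HISAT2, DESeq2 and Bowtie2 2.2.8 are listed, with no role, per the submitters' processing notes. The genome build, annotation, strand setting and counting method are not given in the sources used here, so a gene and an overlapping gene on the other strand may share counts.

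Groups came from the labels. Each of 5 comparisons was fitted on its own groups with edgeR 4.0.16 (R 4.3.3, limma 3.58.1), with its default filter on low counts, TMM scaling and the quasi-likelihood test, and p-values were adjusted over all genes tested by Benjamini-Hochberg at 0.05. CPM uses TMM library sizes. Ratios and correlations were computed in Python 3.11.15 with SciPy 1.17.1 and NumPy 2.4.6, with exact two-sided permutation tests over libraries. Within each list up to 4 called genes with the smallest p were named in a comparison, plus the receptors, Blcap and the 5 genes most like each member; a few others named were chosen after their values were seen. The members and lists were chosen with earlier results of these data known.

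Alternatives were RLE scaling, no filter, a stricter filter, DESeq2 1.42.0, one fit of all 38 libraries, a replicate block, another pseudocount and leaving out each library. Leaving out libraries with gut or Y-linked transcripts was added after seeing the data. The fit was tested on simulated data.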

Additional observations from a re-analysis of the deposited data

Results flagged for a closer look

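Of 45 checks of a gene or ratio within a group, 4 had a library standing apart from the others at the 95% level. Chance gives about 1 in 20 only for normally distributed values. CPM was checked without a log and the checks share libraries, so that rate cannot be set against the 4. Nnat in vitiligo 260 was at 54.0 CPM, against 2.54 to 19.7 CPM in the other vitiligo libraries. Retn in vitiligo_ABX 003 was at 27.8 CPM, against 2.09 to 11.01 CPM in the others of its group. Cfd in the same library was at 373 CPM, against 47.4 to 144 CPM. The log2 ratio of Retn to Adipoq in hippuric_acid 3 was -2.47, against -1.58 to -1.45 in the other 4. The cause of these values was not tested.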

How the results depend on the processing

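Of 104 counts of genes called under alternatives 77 stayed within 1.5 times the main count and 27 moved by more. Of 635 other alternative values 616 are counted as unchanged, 4 lost their call, 5 gained one, 2 moved by more than the spread and 8 are counted as reversed, all 8 without a call. These were the ratio of Lep to Adipoq in vitiligo_ABX against no_induction_ABX (-0.55 with 1 CPM added), that of Cfd with hippuric acid (-1.03 against the adipocyte marker list) and Nnat in vitiligo_ABX against no_induction_ABX, which ran from -0.45 to 0.11 on leaving out single libraries. Nnat in no_induction_ABX against no_induction also changed sign, to 0.0073 without no_induction_ABX 005 and to 0.035 without no_induction 011. These shifts were within the spread and are counted among the 616, so 10 values changed sign in all. The number of genes called in hippuric_acid against vehicle was 1940, and 879 with a replicate block. In vitiligo_ABX against no_induction_ABX it was 689, and 1290 by DESeq2. In vitiligo against no_induction it was 1070, and 1769 by DESeq2, 1683 in one fit of all libraries and 511 without libraries with gut transcripts. In vitiligo_ABX against vitiligo it was 1837, and 2811 in one fit of all libraries, 64 with a replicate block and 961 without libraries with gut transcripts. In no_induction_ABX against no_induction it was 4351, and 1436 with a replicate block. The block kept only libraries whose number was in both groups, so these counts also rest on fewer libraries. The numbers kept were 1 and 6 in vitiligo_ABX against vitiligo, and 1, 2 and 3 in hippuric_acid against vehicle. In no_induction_ABX against no_induction they were 1, 2, 3 and 5.

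With hippuric acid Retn was at -3.24 with the replicate block (adjusted p = 0.125), and Adipoq at -2.55 without vehicle 001, the library with gut and Y-linked transcripts (adjusted p = 0.0605). Cfd passed at -1.81 with the stricter filter (adjusted p = 0.0466), at -1.83 by DESeq2 (0.0452) and at -1.81 in one fit of all libraries (0.0409). With the block Nnat was at -3.35 in vitiligo_ABX against vitiligo and Lep at -4.97 in no_induction_ABX against no_induction. The correlation of Lep with Adipoq in no_induction was 0.934 without the libraries with gut transcripts, which there also held Y-linked transcripts. Leaving out single libraries gave 1149 to 2786 calls with hippuric acid (lowest without hippuric_acid 3, highest without vehicle 001), 228 to 863 in vitiligo_ABX against no_induction_ABX (lowest without no_induction_ABX 002, highest without no_induction_ABX 006), 688 to 2571 in vitiligo against no_induction (lowest without no_induction 023, highest without vitiligo 001) and 1183 to 2803 in vitiligo_ABX against vitiligo (lowest without vitiligo_ABX 004, highest without vitiligo 001). With hippuric acid it gave -2.93 to -2.32 for Adipoq and -2.15 to -1.21 for Nnat. The cause of these changes was not tested.

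Same-numbered libraries were not treated as pairs, since their deviations correlated at -0.20 to 0.35 and no comparison with 3 or more pairs had every one over 0.1. The block moved the count in vitiligo_ABX against no_induction_ABX to 793. Vitiligo and no_induction share only number 1, so no block was fitted. Lep at 0 to 10 counts in no_induction_ABX and Nnat at 6 to 57 counts outside vitiligo limit what small differences could be seen.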
